A study of Mus musculus with 40 samples.

Results

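The difference between 2 inbred mouse strains, C57BL6/J and BALBc/J, in how macrophage messenger RNA changed after 4 hr of KLA was measured in 4 RNA-Seq libraries of the 40 samples in the series. KLA, Kdo2-lipid A, is the active lipid part of lipopolysaccharide and was given at 100 ng/ml. The 4 libraries were polyA RNA of C57BL6/J and BALBc/J macrophages without treatment (fresh medium only) and after KLA for 4 hr, with 1 library per strain and treatment. All cells were peritoneal macrophages elicited with thioglycollate broth, taken by lavage 4 days after the injection and freed of non-adherent cells after a night in culture. The labels name no transgene or altered allele in either strain. The ages of the mice and the number of mice pooled for a library were not given in the sources used here. With 1 library per strain and treatment no test was possible, so values are given for each library, and the spread between mice of 1 strain is not known.

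KLA binds Toll-like receptor 4 (TLR4) with its partner MD-2. The adaptor MyD88 then activates the transcription factor NF-kB, whose subunit p65 turns on cytokine and chemokine genes, while the adaptor TRIF leads to interferon beta. Secreted interferon beta signals back through its receptor and brings on a later wave of antiviral genes, many of which have an interferon-stimulated response element (ISRE) near their start. In macrophages both factors act on chromatin already bound by the lineage factors PU.1 and C/EBPa.

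A gene's level was its tags (aligned reads) per 10000000 tags of the library. Its response in a strain was the KLA 4 hr level minus the untreated level on the scale of log2(tags + 10). The value D is the C57BL6/J response minus the BALBc/J response. D of 1 thus stands for a response that is 2-fold larger, or a fall that is 2-fold smaller, in C57BL6/J, and D of -1 for the same in BALBc/J. Responses of 1 or more are called a rise and those of -1 or less a fall. Of 22865 gene symbols in the table, 10715 had 20 or more tags in at least 2 of the 6 polyA libraries and were kept, with 1 transcript per symbol. All values of tags, in peaks too, are normalised to this total and are not divided by transcript length.

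The promoters of 6 genes that the results turn on are shown first. H2-M2, Ptx3 and Il6 rose more in C57BL6/J. Gbp1, H28 and Trim30d are interferon-inducible genes that rose more in BALBc/J. The sequences are RefSeq's, from GRCm38.p6 (the C57BL/6J reference), 5′ to 3′ on the gene's strand, from 250 bases before the start to 50 after it. No BALBc/J sequence was used here. Capitals mark matches on either strand to the 9-letter ISRE core GAAANNGAA or to the NF-kB consensus. H2-M2 lies at chr17:37483505-37483804 on the minus strand, Ptx3 at chr3:66219637-66219936 (plus) and Il6 at chr5:30012864-30013163 (plus). Gbp1, listed as Gbp2b in RefSeq, lies at chr3:142594597-142594896 (plus), H28, listed as Ifi44l, at chr3:151762842-151763141 (minus) and Trim30d at chr7:104507800-104508099 (minus).
H2-M2: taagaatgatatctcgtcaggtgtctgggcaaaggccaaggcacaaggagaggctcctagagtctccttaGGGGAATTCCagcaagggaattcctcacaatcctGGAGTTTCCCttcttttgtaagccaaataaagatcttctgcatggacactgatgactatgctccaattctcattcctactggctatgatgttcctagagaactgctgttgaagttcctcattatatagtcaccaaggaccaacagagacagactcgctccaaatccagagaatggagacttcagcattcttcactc
Ptx3: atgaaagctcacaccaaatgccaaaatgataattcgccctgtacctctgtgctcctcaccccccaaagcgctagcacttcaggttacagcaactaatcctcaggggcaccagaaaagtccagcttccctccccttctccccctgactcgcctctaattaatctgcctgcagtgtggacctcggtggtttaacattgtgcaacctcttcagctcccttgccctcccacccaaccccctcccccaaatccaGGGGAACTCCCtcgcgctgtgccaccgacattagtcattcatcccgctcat
Il6: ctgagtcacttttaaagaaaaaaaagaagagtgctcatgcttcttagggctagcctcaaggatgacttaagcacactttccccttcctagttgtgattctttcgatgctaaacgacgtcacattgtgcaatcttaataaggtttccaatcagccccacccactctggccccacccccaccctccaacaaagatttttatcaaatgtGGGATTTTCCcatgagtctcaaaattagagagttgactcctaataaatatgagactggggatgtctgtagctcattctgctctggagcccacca
Gbp1: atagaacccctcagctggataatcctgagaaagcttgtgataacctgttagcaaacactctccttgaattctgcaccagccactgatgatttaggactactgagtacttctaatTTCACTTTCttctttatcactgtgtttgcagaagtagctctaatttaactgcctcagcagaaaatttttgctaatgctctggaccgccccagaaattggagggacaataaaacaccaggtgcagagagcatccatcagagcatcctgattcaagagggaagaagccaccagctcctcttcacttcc
H28: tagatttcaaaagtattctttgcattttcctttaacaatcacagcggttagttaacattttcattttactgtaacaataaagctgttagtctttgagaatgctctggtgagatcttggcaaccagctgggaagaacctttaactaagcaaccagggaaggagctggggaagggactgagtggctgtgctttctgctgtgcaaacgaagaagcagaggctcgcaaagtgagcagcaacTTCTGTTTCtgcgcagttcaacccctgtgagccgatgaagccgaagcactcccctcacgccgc
Trim30d: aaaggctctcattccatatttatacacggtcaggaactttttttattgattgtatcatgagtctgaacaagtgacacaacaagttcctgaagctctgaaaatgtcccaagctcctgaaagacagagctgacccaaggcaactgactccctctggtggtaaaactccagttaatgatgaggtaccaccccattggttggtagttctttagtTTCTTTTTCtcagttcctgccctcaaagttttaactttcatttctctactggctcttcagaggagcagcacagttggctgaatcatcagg

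The first 3 promoters held the NF-kB consensus and no ISRE core, with 2 separate matches in H2-M2 and 2 overlapping ones at the Ptx3 start. The last 3 held 1 ISRE core each and no NF-kB consensus. Of the 93 genes named by the rules of the processing section, 71 had a promoter in the table that is shown or searched here. The ISRE core was present in 12 of these and the NF-kB consensus in 10. The 6 promoters were picked with their values seen, and other named genes crossed this split. The ISRE core was also present at Tarm1, Apobec3, Tgfbi and Ifi205, with D of 3.18, 2.37, 2.25 and 1.21, and the NF-kB consensus at Wdtc1 and Traf3, with D of -1.79 and -1.04. Over all 27025 promoters of the table, 8.57% held the ISRE core and 4.35% the NF-kB consensus. A match is a run of letters, and no binding was read from it.

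The 4 libraries and the 2 taken at 1 hr held about 16980000 to 20260000 tags, and between 88.7% and 90.6% of them were counted on the listed genes. The cells carried macrophage markers. In the 4 libraries Emr1 (F4/80) had 2240 to 3647 tags, Csf1r 2933 to 7524 tags and Cd68 11658 to 14649 tags. The T cell gene Cd3e was at or near 0, with at most 0.4 tags. Of 13 T and NK cell markers, 10 stayed under 5 tags in all 4 libraries, as did 7 of 7 erythroid markers. Single markers of other cells were present at 4 hr. Lck of T cells had 186 and 235 tags in C57BL6/J and BALBc/J, Hdc of mast cells 424 and 345, and S100a8 of neutrophils 341 and 147. Without treatment Lck had 4.1 and 12.2 tags, Hdc 13.2 and 11.6, and S100a8 131 and 77.0. Of 10 neutrophil markers 6 stayed under 5 tags, S100a9 among them. Of 4 measured mast cell markers Hdc alone rose and Cpa3 alone fell in each strain. Whether other cells carried these transcripts was not tested. Of 7 B cell markers 3 reached 20 tags, with Cd22 the highest at 1411. Markers of mesothelial cells and fibroblasts were present, 12 of 14 reaching 20 tags. Their summed level was 3100 tags in untreated and 2055 in KLA-treated C57BL6/J cells, and 4876 and 4533 in BALBc/J cells. Dcn, the highest of them, had 700 and 842 tags in C57BL6/J and 1773 and 1319 in BALBc/J. Of the 11 that were measured, 5 had a D above 0, 0 were at 1 or more and 3 at -1 or less, beside 1.27% and 3.38% of all genes. Their median was -0.17 (levelled on transcript length, as explained below, -0.10). The 3 were the collagen genes Col1a1, Col3a1 and Col1a2, with D of -1.46, -1.19 and -1.10 (levelled -1.15, -0.69 and -0.71). The part of such cells in other values of D was not tested.

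The 2 strains responded alike for most genes. D was 1 or more for 136 genes (1.27% of those measured) and -1 or less for 362 genes (3.38%). The middle 95% of genes had a D between -1.08 and 0.83, and the median response was -0.47 in both strains. Differences of 4-fold or more were few, 19 genes with D of 2 or more and 14 with D of -2 or less. Only 3 genes in each direction passed 8-fold. The 95% interval of D for counting error, taken from the recovered reads, reached 0.37 to each side at the median of these 136 and 362 genes. It lay on 1 side of 0 for all of them, but this is no test. With the constant added to the tags before the log, and at these depths, the interval cannot reach 1 to either side. Genes chosen by D of 1 or more or -1 or less therefore had to pass, and nothing is read from the count. This interval covers counting error only. At the edges of the counts, the chemokine gene Cxcl10 was just outside with a D of 0.999 and Wdr59 just inside with 1.002. The interferon-inducible helicase gene Ddx60 was just inside with -1.001 and Usp32 just outside with -0.9995.

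**Figure D1:**
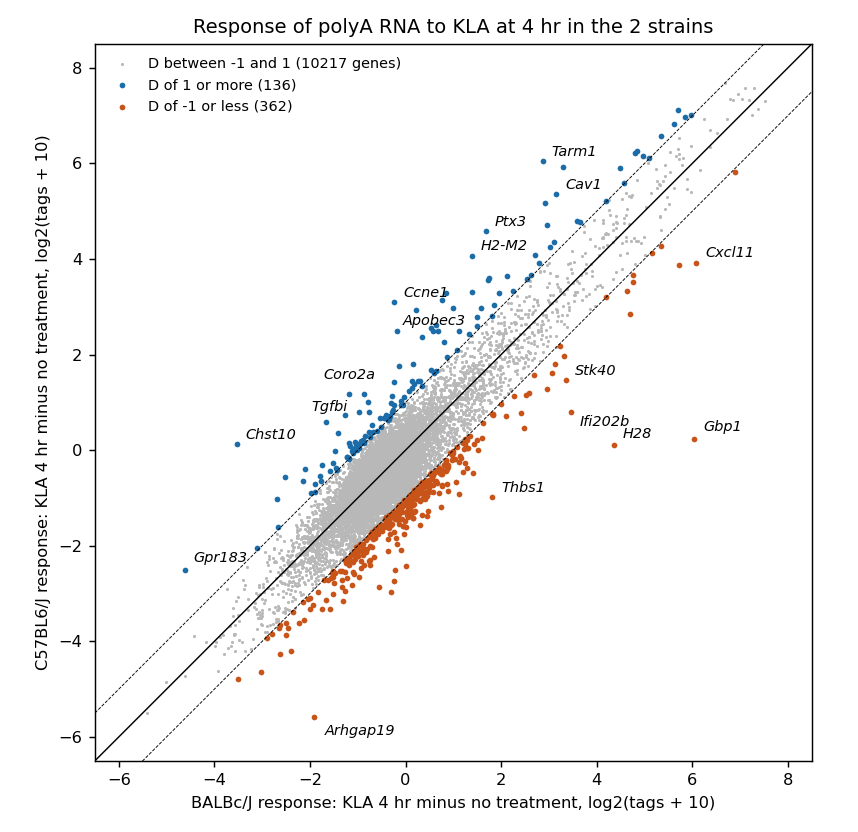
Response at 4 hr of KLA in BALBc/J (x axis) against that in C57BL6/J (y axis), each as a difference of log2(tags + 10), for 10715 genes, 1 point per gene. The solid line marks equal responses and the dashed lines D of 1 and -1: 136 genes lie on or above the upper one (blue) and 362 on or below the lower one (orange), with Gbp1 and H28 farthest to the lower right.

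Strain-dependent genes were mostly not genes that went opposite ways. Among the 136 genes with D of 1 or more, 41 rose in both strains, 31 rose in C57BL6/J only and 32 fell in BALBc/J only. A further 4 fell in both, and 27 moved by less than 1 in each strain. Among the 362 genes with D of -1 or less, the greatest class was 159 genes that fell in C57BL6/J and moved by less than 1 in BALBc/J. In 61 both strains fell, in 36 BALBc/J alone rose, in 20 both rose, and 86 moved by less than 1 in each. Coro2a, a coronin family gene, was the 1 gene that rose in 1 strain and fell in the other. It went from 678 to 1550 tags in C57BL6/J and from 808 to 350 in BALBc/J, a D of 2.37.

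A D of 1 or more was most frequent among genes that KLA turned up, and a D of -1 or less among those it turned down. Of 867 genes whose mean response over the strains was 1 or more, 57 (6.57%) had D of 1 or more and 31 (3.58%) D of -1 or less. Of 2267 genes whose mean response was -1 or less these numbers were 15 (0.66%) and 124 (5.47%), and of the other 7581 genes 64 (0.84%) and 207 (2.73%). Since D and this mean come from the same 4 libraries, the shares are a description. The strains' levels themselves showed where a difference in response came from. In 42 of the 136 genes and 168 of the 362 genes the strains, on the same log2(tags + 10) scale, were within 2-fold without treatment and apart by 2-fold or more at 4 hr. In 33 and 37 genes it was the other way round, so that KLA brought the strains' levels together.

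D also ran with the length of the transcript, and the counts have to be read with this. In genes with a listed mRNA under 1000 nt the median D was 0.41, and it fell in steps of length to -0.65 at 7000 nt and over. The share of genes with D of -1 or less went from 0.556% in the shortest class to 17.3% in the longest. Spearman's rank correlation of D with length was -0.61 over 10715 genes, which are not independent replicates and share 4 libraries. Transcripts of 5000 nt or more took 11.5% of the counted tags in untreated C57BL6/J cells and 8.8% at 4 hr, against 10.8% and 11.9% in BALBc/J. At 1 hr they took 9.7% and 7.8%. The strain order of the 2 libraries was thus reversed between 1 hr and 4 hr. The same difference in nascent RNA by GRO-Seq at 1 hr did not run with length (rank correlation -0.01 over 8401 genes). What the length pattern rests on was not tested. A levelled D, from which the median of the 501 genes nearest in length was subtracted, is given below for lists and for genes that it takes under 1 or above -1, and for some others. Levelled, 132 genes (1.23%) were at 1 or more and 163 (1.52%) at -1 or less. Of the 362 genes 124 were still at -1 or less after levelling, and of the 136 genes 78 were still at 1 or more. Genes turned up and genes turned down by KLA then had -1 or less at close rates, 22 of 867 and 57 of 2267, while 1 or more remained more frequent among those turned up, 50 of 867 against 20 of 2267.

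**Figure D2:**
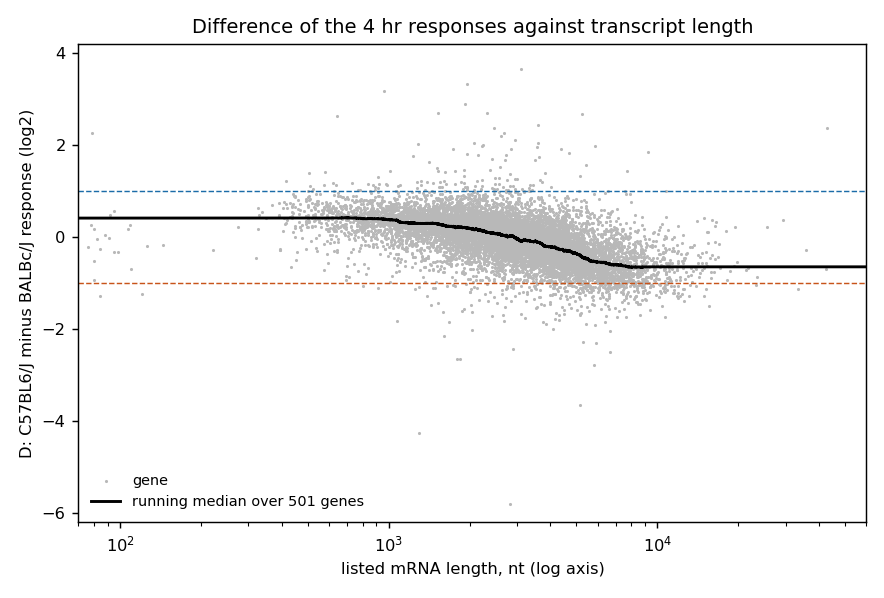
D (y axis, log2) against the listed mRNA length (x axis, log scale, nt) for 10715 genes, with the running median over 501 genes (black line) and D of 1 and -1 (dashed). The running median goes from above 0 in short transcripts to below -0.5 in long ones.

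Several genes with a much larger response in C57BL6/J were at a low level in both strains before KLA. Ptx3 encodes pentraxin 3, a secreted pattern recognition protein that binds complement. It went from 9.0 to 443 tags in C57BL6/J and from 6.6 to 43.3 in BALBc/J, a D of 2.90 (levelled 2.70). Tarm1, an immunoglobulin-family receptor of myeloid cells, went from 5.2 to 997 tags in C57BL6/J and from 3.6 to 89.0 in BALBc/J (D 3.18, levelled 2.80). In polyA RNA both genes were at the same low level in the 2 strains without treatment. They had not separated there at 1 hr, when Ptx3 had 21.0 and 27.4 tags and Tarm1 4.7 and 8.4 tags in C57BL6/J and BALBc/J. In nascent RNA at 1 hr Ptx3 had 13.9 tags in C57BL6/J and 1.6 in BALBc/J, from 1.0 and 0.0 without treatment. Tarm1 had 6.4 and 1.9 nascent tags, from 0.1 and 0.3. Both genes were too low in GRO-Seq to be kept there, and whether their nascent RNA had separated was not tested.

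H2-M2, a class I histocompatibility gene of the M region on chromosome 17, went from 17.7 to 455 tags in C57BL6/J and from 12.6 to 48.8 in BALBc/J (D 2.69). It was already apart at 1 hr, where C57BL6/J had 82.4 tags and the difference of the 1 hr responses was 1.43. The strains carry different haplotypes at this locus, and tags of both were counted on mm9, a C57BL/6J build. Of the 23 measured genes of class I presentation it was the 1 gene past 1, beside 1.27% of all genes. The others ran from -0.94 to 0.71.

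AA467197, known as Nmes1, went from 97.6 to 6513 tags in C57BL6/J and from 81.0 to 885 in BALBc/J (D 2.62). The listed microRNA gene Mir147 lies inside it on the same strand, at chr2:122466538-122466617 in mm9 within chr2:122463622-122466812. Its 20.9 to 1104 and 14.3 to 173 tags (D 2.26) cannot be told apart from those of the longer transcript. Both rose in both strains, and by more in C57BL6/J.

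Apobec3, a cytidine deaminase that restricts retroviruses, had 202 and 238 tags without treatment and 1856 and 412 at 4 hr in C57BL6/J and BALBc/J (D 2.37). Cav1, caveolin 1 of plasma membrane caveolae, went from 145 to 6338 tags in C57BL6/J and from 243 to 2247 in BALBc/J (D 2.20). Slc7a11, the cystine transporter subunit that feeds glutathione synthesis, went from 160 to 2061 and from 187 to 653 tags (D 1.86, levelled 2.51). In these 3 genes the strains were within 2-fold before KLA and the rise was larger in C57BL6/J.

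Cyclin E1, encoded by Ccne1, stood apart from the rest of the cell cycle list. It went from 26.7 to 303 tags in C57BL6/J and from 51.9 to 42.7 in BALBc/J (D 3.33, levelled 3.13). Of 28 measured cell cycle genes 3 had D of 1 or more, beside 1.27% of all genes, and 0 had D of -1 or less. The other 2 were the Cdk inhibitor gene Cdkn1a, with D of 1.19 (levelled 0.98), and the cyclin gene Ccnb2, with D of 1.08 (levelled 0.80). Levelled, Ccne1 was the 1 gene of the list at 1 or more. The list's median was -0.06.

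Other genes with large D differed through a fall in BALBc/J. Chst10, a sulfotransferase, had the largest D of all, 3.66, and yet was near absent in C57BL6/J, with 1.3 tags before and 2.4 after KLA. In BALBc/J it fell from 210 to 9.0 tags, so the value measures the loss of a transcript that only BALBc/J cells held in quantity. Tgfbi, an extracellular matrix protein, went from 271 to 413 tags in C57BL6/J and from 143 to 38.3 in BALBc/J (D 2.25). Lilrb3, an inhibitory immunoglobulin-like receptor, went from 2401 to 3100 tags and from 1603 to 597 (D 1.78). Gpr183, the oxysterol receptor EBI2, fell in both strains, from 138 to 16.1 and from 951 to 29.0 tags (D 2.12). In Lilrb3 and Tgfbi the 2 strains moved apart, while in Gpr183 and Chst10 they came together.

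Alas1, the first enzyme of heme synthesis, combined a difference before KLA with one after it. It had 3029 and 8196 tags in C57BL6/J and 821 and 698 in BALBc/J (D 1.67). The strains were apart in all 3 pairs of libraries, with 4130 and 655 tags at 1 hr. Hal, histidine ammonia-lyase, was the reverse in level, 81.4 and 53.2 tags in C57BL6/J against 3637 and 1049 in BALBc/J, and its D of 1.25 came from the fall in BALBc/J.

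**Figure D3:**
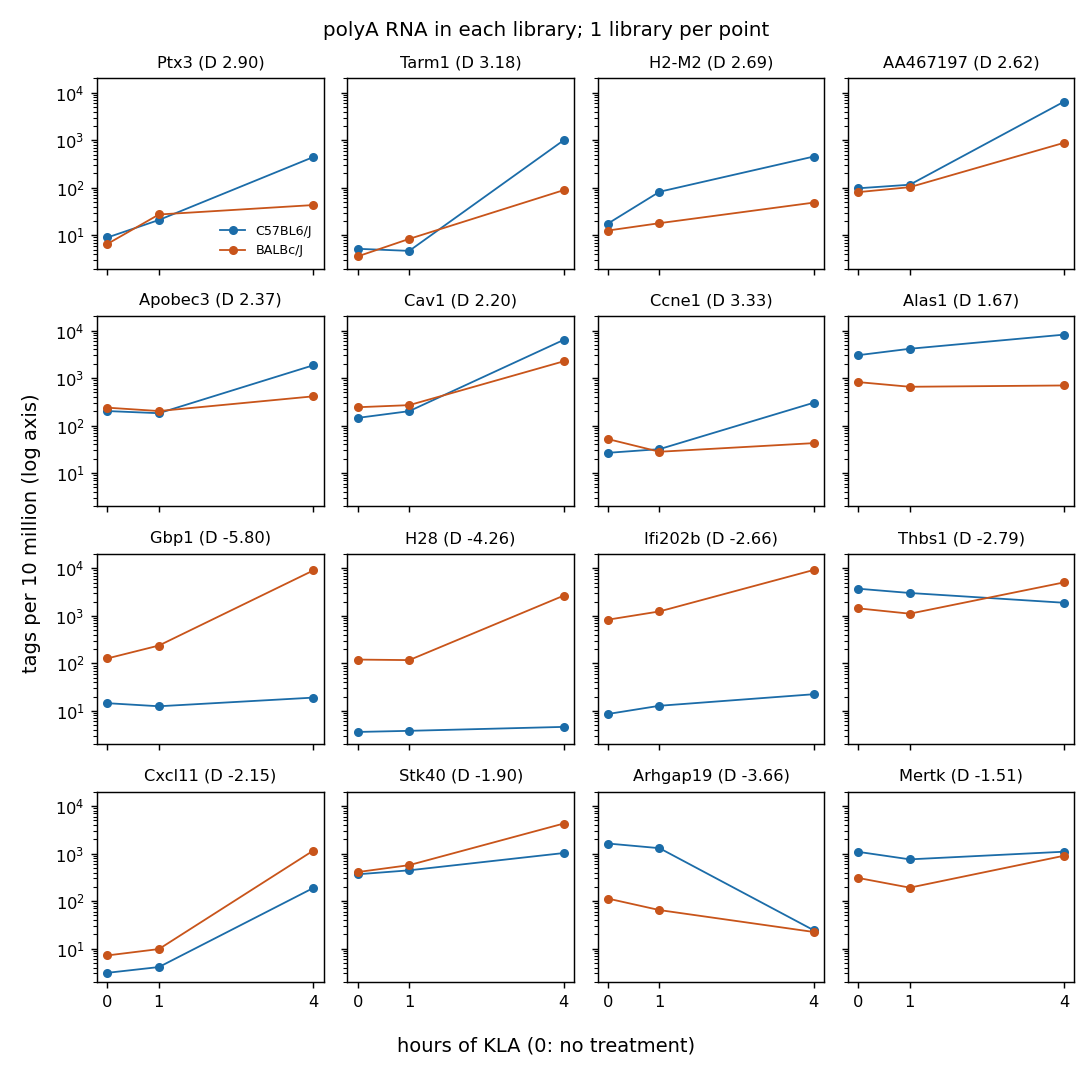
Normalised tags (y axis, log scale) of 16 genes at 0, 1 and 4 hr of KLA (x axis) in C57BL6/J (blue) and BALBc/J (orange), 1 library per point, with D in each title. The upper 8 genes had a D above 0 and the lower 8 a D below 0. Among the lower 8, Gbp1 reached 9012 tags in BALBc/J against 19.0 in C57BL6/J.

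The 2 largest differences of all were interferon-inducible genes that responded in BALBc/J alone. Gbp1, a guanylate-binding GTPase of cell-autonomous defence (mm9 chr3:142257810-142282140), went from 127 to 9012 tags in BALBc/J and from 14.5 to 19.0 in C57BL6/J (D -5.80). H28, a minor histocompatibility antigen gene of the Ifi44 family (mm9 chr3:151421700-151425855), went from 120 to 2653 tags in BALBc/J and from 3.6 to 4.6 in C57BL6/J (D -4.26). Both were also apart before KLA, where C57BL6/J cells had few tags. Levelling on length left these at -5.81 and -4.56.

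Ifi202b, a DNA-binding protein of the Ifi200 family, had the same shape with a higher base: 830 to 9248 tags in BALBc/J and 8.6 to 22.4 in C57BL6/J (D -2.66). Other members of this family on chromosome 1 went the other way. Ifi203 went from 7.3 to 442 tags in C57BL6/J and from 25.4 to 266 in BALBc/J (D 1.74), and Ifi205 from 23.8 to 3811 and from 25.2 to 1706 (D 1.21, levelled 0.96). Of 10 measured members, 2 had D of 1 or more and 1 had D of -1 or less, beside 1.27% and 3.38% of all genes. The genes of this family, like the Gbp and Trim30 genes, are close copies of each other, so reads may be split between them, and values of single members are uncertain.

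Trim30d, a tripartite motif gene, reached nearly the same level in the 2 strains, 1483 tags in C57BL6/J and 1583 in BALBc/J. It began at 92.1 and 20.3 tags, which gave a D of -1.85. Cxcl11, named for a ligand of the receptor CXCR3, is listed with a transcript of RefSeq's non-coding class. It went from 3.1 to 189 tags in C57BL6/J and from 7.2 to 1156 in BALBc/J (D -2.15). Its relatives Cxcl9 and Cxcl10 had a D of -0.51 and 1.00, so the RNAs of the 3 CXCR3 ligand genes did not share a direction.

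Stk40, a pseudokinase gene, rose in both strains, from 367 to 1027 tags in C57BL6/J and from 409 to 4287 in BALBc/J (D -1.90). Thbs1 encodes thrombospondin 1, an adhesive glycoprotein that activates TGF-beta. It went from 3720 to 1883 tags in C57BL6/J and from 1435 to 5062 in BALBc/J (D -2.79, levelled -2.26). The strains were thus apart by more than 2-fold both without treatment and at 4 hr, in reverse order. Slamf1 and Slamf7, receptors of the SLAM family on chromosome 1, had D of -1.83 and -1.45. They were the 2 at -1 or less of the 8 measured genes of this family, beside 3.38% of all genes. Of the 8, 6 had a D above 0 and 0 were at 1 or more (median 0.35, levelled 0.22). Slamf1 went from 2.2 to 78.7 tags in C57BL6/J and from 1.3 to 282 in BALBc/J. Mertk, the receptor tyrosine kinase for the uptake of dying cells, stayed at 1088 and 1097 tags in C57BL6/J and went from 307 to 903 in BALBc/J (D -1.51). At 4 hr the strains were thus close in Mertk and apart in Thbs1 and Slamf1.

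A second group with negative D fell more in C57BL6/J. Arhgap19, which encodes a GTPase-activating protein, fell from 1630 to 24.3 tags in C57BL6/J and from 113 to 22.4 in BALBc/J (D -3.66). The levels met at 4 hr, and the strain difference before KLA made the value. 2610035D17Rik and Gfod1 were alike in this, with 83.5 and 144 tags in untreated C57BL6/J cells and 3.0 and 7.7 in untreated BALBc/J cells. In Fnip2, a folliculin partner, the strains began level, at 4083 and 3782 tags, and ended at 398 and 1254 (D -1.74, levelled -1.14). Srrm2, Tbc1d9 and Wdtc1 also began within 1.5-fold of each other and fell in C57BL6/J only (D -1.69, -1.92 and -1.79). Srrm2 and Fnip2 are long, listed at 8600 and 7095 nt, and their levelled D was -1.04 and -1.14.

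Interferon-responsive genes as a group did not favour a strain. All 47 genes of the interferon response list were measured, and 45 rose in C57BL6/J and 46 in BALBc/J. Their median D was 0.08 (levelled 0.11), beside -0.00 over all genes. Of the 47, 3 were at 1 or more and 3 at -1 or less (levelled, 2 and 3), beside 1.27% and 3.38% of all genes. The 3 larger in C57BL6/J were Usp18, which removes ISG15 from proteins and dampens interferon signalling, the oligoadenylate synthetase-like Oasl1 and the transcription factor Irf7. Usp18 went from 74.6 to 6324 tags in C57BL6/J and from 181 to 5297 in BALBc/J (D 1.43). Oasl1 ended at 27560 and 31920 tags and Irf7 at 6967 and 7786 in C57BL6/J and BALBc/J, with D of 1.22 and 1.19 (Irf7 levelled 0.98). All 3 began 2-fold or more higher in BALBc/J and ended within 2-fold, so D here measured a higher untreated level in BALBc/J. The 3 larger in BALBc/J were H28, Cxcl11 and Ifi44.

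Interferon-inducible GTPases had a median D of -0.45 (levelled -0.41) over 15 measured genes. None had D of 1 or more and 3 had D of -1 or less, beside 3.38% of all genes; levelled, Gbp1 alone was at -1 or less. Apart from Gbp1 these were Irgm2, from 156 to 3224 tags in C57BL6/J and from 128 to 5567 in BALBc/J (D -1.06, levelled -0.97), and Gbp7 (D -1.04, levelled -0.55). Both were within 2-fold between the strains at 4 hr. Ifnb1 itself, at 24.3 and 16.2 tags at 4 hr after a peak of 228 and 596 at 1 hr, had a D of 0.30.

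Most inflammatory cytokine and chemokine genes had a D above 0. Of 27 measured cytokine genes 20 did, 3 had D of 1 or more and 0 had D of -1 or less, beside 1.27% and 3.38% of all genes, with a median of 0.55 (levelled 0.28). Levelled, none of these 3 was at 1 or more; Tnfsf15 was then at 1.02 and Inhba at -1.03, from a D of 0.49 and -0.75. Il6 went from 13.3 to 2926 tags in C57BL6/J and from 12.2 to 1272 in BALBc/J (D 1.12, levelled 0.78). Il12a and Il12b, which encode the subunits of interleukin 12, ended at 748 and 902 tags in C57BL6/J and at 392 and 420 in BALBc/J, with D of 1.20 and 1.02 (levelled 0.90 and 0.83). Tumour necrosis factor (Tnf) and interleukin 1 beta (Il1b) had the same D of 0.55. These transcripts are short, and the cytokine list's median length was 1647 nt against 2842 nt over all genes.

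Of 23 measured chemokine genes 20 had a D above 0, with a median of 0.50 (levelled 0.24). Of the 23, 3 were at 1 or more and 2 at -1 or less (levelled, 2 and 2), beside 1.27% and 3.38% of all genes. Cxcl3, a neutrophil attractant, ended at 2856 tags in C57BL6/J and 1184 in BALBc/J from 10.5 and 13.1 (D 1.43, levelled 1.06). Ccl24, an eosinophil attractant of alternative activation, went from 10.6 to 96.7 tags in C57BL6/J and from 93.0 to 121 in BALBc/J (D 2.03). The strains thus parted in Cxcl3 and met in Ccl24.

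**Figure D4:**
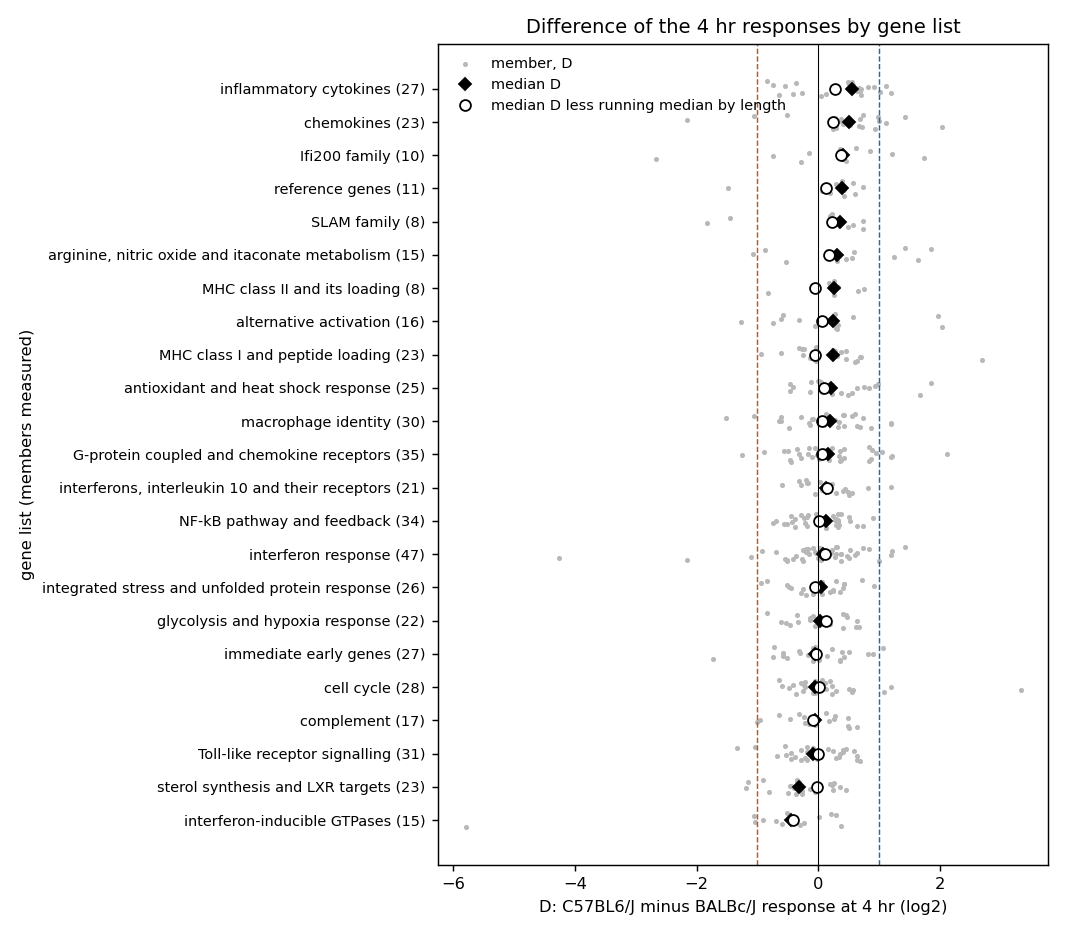
D (x axis, log2) of the measured members (grey points) of 23 gene lists, with the list's median D (filled diamond) and its median after levelling on transcript length (open circle). Cytokines and chemokines have the highest medians, 0.55 and 0.50, and the GTPases the lowest, -0.45; levelling pulls the first 2 toward 0.

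NF-kB genes and their feedback inhibitors had a median D of 0.12 (levelled 0.01), and D ran from -0.75 to 0.90. None of the 34 measured reached 1 or -1. This stands beside 1.27% of all genes at 1 or more and 3.38% at -1 or less, and nothing is read from the count. Nfkbia, the inhibitor IkB-alpha, had 16292 tags in C57BL6/J and 13027 in BALBc/J at 4 hr (D 0.33). Rela, which encodes p65, had 2348 and 2537 (D -0.24). The receptor gene Tlr4 fell in both strains (D 0.40), and the lineage factor genes Sfpi1, which encodes PU.1, and Cebpa had D of 0.42 each. In these 5 genes D lay between -0.24 and 0.42. Some genes of the interferon and Toll-like receptor lists went further. Irf7 was at 1.19 (levelled 0.98), Tlr9 at -1.34 (levelled -1.24) and Traf3 at -1.04 (levelled -0.43).

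Arginine metabolism and its neighbours split by gene. Of 15 measured, 4 had D of 1 or more and 1 had D of -1 or less (levelled, 4 and 0), beside 1.27% and 3.38% of all genes. Arg2, the mitochondrial arginase, rose to 83.9 tags in C57BL6/J, a response of 1.80, and went from 753 to 839 in BALBc/J (D 1.64). Slc7a2, the cationic amino acid transporter, reached 7031 and 6070 tags from 107 and 262 (D 1.43). Nos2, inducible nitric oxide synthase, reached 889 tags in C57BL6/J and 1752 in BALBc/J from 5.8 and 4.7 (D -1.07, levelled -0.87). Irg1, which makes itaconate, had a D of 0.27 and Arg1 one of 0.31.

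Receptors and regulators outside these lists moved singly. Of 31 measured genes of Toll-like receptor signalling 0 had D of 1 or more and 2 had D of -1 or less (levelled, 0 and 1). The shares of all genes were 1.27% and 3.38%, and the list's median was -0.09. The DNA-sensing receptor gene Tlr9 fell from 115 to 41.8 tags in C57BL6/J and stayed at 42.6 and 45.4 in BALBc/J (D -1.34). The other was Traf3, an adaptor of the interferon branch, which had 230 and 222 tags in C57BL6/J and 223 and 452 in BALBc/J (D -1.04, levelled -0.43). Tlr9 thus began apart and ended level, and Traf3 the reverse.

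The 35 measured G-protein coupled and chemokine receptors had a median D of 0.16. Of them 4 had D of 1 or more and 1 had D of -1 or less (levelled, 3 and 1), beside 1.27% and 3.38% of all genes. Besides Gpr183 and Cx3cr1, the fractalkine receptor (D 1.20), these included the formyl peptide receptor gene Fpr1. It went from 2.9 to 236 tags in C57BL6/J and from 0.7 to 77.5 in BALBc/J (D 1.22, levelled 0.93). The 30 measured genes of macrophage identity had a median of 0.19. Of these 2 were at 1 or more and 2 at -1 or less (levelled, 1 and 1), beside the same shares of all genes. Fcgr2b, the inhibitory Fc gamma receptor, went from 1468 to 3832 tags in C57BL6/J and from 1622 to 1842 in BALBc/J (D 1.20, levelled 0.92). Runx1, a transcription factor of blood cells, fell from 648 to 307 tags in C57BL6/J and had 553 in both BALBc/J libraries (D -1.05, levelled -0.45).

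Of 27 measured early response genes 5 rose in each strain at 4 hr, 7 fell in C57BL6/J and 8 in BALBc/J. Of these 27 genes 1 had D of 1 or more and 1 had D of -1 or less, beside 1.27% and 3.38% of all genes. Dusp4, a phosphatase that switches off MAP kinases, had 135 and 80.7 tags in C57BL6/J and 120 and 260 in BALBc/J (D -1.73). The nuclear receptor gene Nr4a1 fell below its start in both strains, from 180 to 35.7 tags and from 248 to 19.9 (D 1.06, levelled 0.98), after 2869 and 3819 tags at 1 hr. Socs2, a suppressor of cytokine signalling, went from 6.0 to 87.9 tags in C57BL6/J and from 19.5 to 36.1 in BALBc/J (D 1.97). Lox, lysyl oxidase of collagen crosslinking, went from 23.2 to 314 and from 76.5 to 147 tags (D 2.43), and Plagl1, a zinc finger factor, from 3.1 to 64.3 and from 32.3 to 27.5 (D 2.68). In Socs2, Lox and Plagl1 BALBc/J began higher and C57BL6/J ended higher.

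The counts in the next lists stand beside 1.27% of all genes at 1 or more and 3.38% at -1 or less, and nothing is read from them. None of 26 measured genes of the integrated stress and unfolded protein response and none of 22 of glycolysis and hypoxia reached 1 or -1. Of 17 measured complement genes only C3 did, with 677 and 710 tags in C57BL6/J and 806 and 1715 in BALBc/J (D -1.01, levelled -0.63). Of 8 measured class II presentation genes 0 did. Of 25 measured genes of the antioxidant and heat shock list 2 were at 1 or more, Slc7a11 and Alas1.

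The median D of 23 measured sterol genes was -0.32 (levelled -0.02), with 2 at -1 or less, among them Scd2, a fatty acid desaturase, at -1.16 (levelled -0.69). Levelled, 0 of them was at -1 or less. Of 11 measured reference genes the median D was 0.39 (levelled 0.12), with Hprt and Actb at 0.42 each, Tbp at 0.30 and the long Polr2a at -1.48 (levelled -0.94). Gapdh and Ppia, which have many processed copies in the genome, were listed at no more than 9.6 and 4.8 tags and could not serve.

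Readouts that D did not use were then set beside it. In GRO-Seq, which maps RNA as polymerase makes it, the same difference of responses at 1 hr had a median of -0.44 over the 8401 genes with 20 or more tags in 2 or more of the 4 GRO-Seq libraries, and it is given here less that median. Of the 136 genes 64 were measured, and 52 of them were above 0 (81.2%), with a median of 0.33. Of the 362 genes 303 were measured, and 100 were above 0 (33.0%), with a median of -0.15. The nascent difference was 1 or more for 8 of the 64 genes, against 0.667% of all genes, and -1 or less for 1 of the 64. It was -1 or less for 4 of the 303 genes, against 0.179%, and 1 or more for 1 of the 303.

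The 8 genes were Slc7a11, Gda, Slc7a2, Rhob, Fcgr2b, Snhg8, Il12b and F630028O10Rik. The 4 were Arhgap19, Gfod1, Fhdc1 and Dusp7. Slc7a11 had 63.3 and 376 nascent tags without and with KLA in C57BL6/J and 77.7 and 300 in BALBc/J. Arhgap19 fell from 193 to 7.1 nascent tags in C57BL6/J and from 39.2 to 4.7 in BALBc/J. For both genes the nascent responses at 1 hr pointed the same way as the RNA at 4 hr. Thbs1 did not share this: its nascent difference was 0.34 and its D was -2.79.

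In polyA RNA at 1 hr few genes differed, 23 of 10715 by 1 or more (0.215%) and 19 by -1 or less (0.177%). These values share the untreated libraries with D. Of the 136 genes 2 were at 1 or more at 1 hr and 2 at -1 or less. Of the 362 genes 2 were at -1 or less and 2 at 1 or more. The median 1 hr difference was 0.22 in the 136 genes and 0.12 in the 362, beside 0.06 over all genes. The 2 of the 136 genes at -1 or less were Oasl1 and Il6. Oasl1 had 496 tags in C57BL6/J and 5381 in BALBc/J at 1 hr, a 1 hr difference of -1.98 beside a D of 1.22. Il6 had a 1 hr difference of -1.03 beside a D of 1.12.

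Binding of p65 after 1 hr of KLA was compared within 10 kb of each start, in 2 libraries per strain. Most strain-dependent genes had p65 peaks in both strains. Peaks in all 4 libraries were present at 72.1% of the 136 genes and 72.7% of the 362, beside 67.2% of all genes measured. Peaks in both C57BL6/J libraries and in no BALBc/J library were present at 6 of the 136 genes (4.41%) and 3.86% of all. Peaks in both BALBc/J libraries and in no C57BL6/J library were present at 8 of the 362 genes (2.21%), 2 of the 136 (1.47%) and 0.429% of all.

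Ptx3 had such a peak in C57BL6/J. A p65 peak 6144 and 6148 bases before its start had 138 and 147 tags in the 2 C57BL6/J libraries, and no peak was listed in either BALBc/J library. At the same place in C57BL6/J PU.1 had 36.0 tags without and 97.3 with 1 hr of KLA, and C/EBPa 40.1 and 83.9, while neither factor had a peak within 10 kb in BALBc/J. Lilrb3 had a p65 peak of 292 and 282 tags 7927 and 7915 bases after its start in C57BL6/J and none in BALBc/J. In these 2 genes the strain with the peak had the higher RNA at 4 hr. Mertk also had p65 peaks in C57BL6/J only. Its RNA at 4 hr was 1097 tags in C57BL6/J and 903 in BALBc/J, while its D was -1.51. Its strongest peak had 34.1 tags in replicate 1, 215 bases before the start. In replicate 2 the strongest had 13.4 tags and lay 2898 bases after the start.

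At H28 the peaks were BALBc/J's. A p65 peak 543 bases after the start had 44.0 and 40.3 tags in the BALBc/J libraries, and none was listed in C57BL6/J. H3K27Ac, a mark of active elements, was listed there in BALBc/J only. H3K4me2, a mark of promoters and enhancers, had 1043 tags in untreated BALBc/J cells and 269 in untreated C57BL6/J cells. Trim30d had a p65 peak of 56.0 and 44.3 tags in BALBc/J and none in C57BL6/J, whereas H3K4me2 had 331 tags in untreated C57BL6/J cells and no region in untreated BALBc/J cells. Chst10, whose RNA was held by untreated BALBc/J cells, had PU.1 peaks of 107 and 84.1 tags before and after KLA in BALBc/J and none in C57BL6/J.

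Gbp1 was different. Its strongest p65 peak within 10 kb, between 4239 and 4268 bases before the start, had 172 and 143 tags in C57BL6/J and 139 and 110 in BALBc/J. H3K4me2 had 486 and 425 tags in the untreated cells of the 2 strains. The strain without Gbp1 RNA thus had the marks and the p65 peak too.

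Differences in peak size were also seen where both strains had a peak, at genes of either sign of D. Among named genes with p65 peaks in all 4 libraries, both C57BL6/J values of the strongest peak were above both BALBc/J values in 14 of 31 genes with D of 1 or more and in 12 of 30 with D of -1 or less. The reverse held in 1 and 4 genes. The share over all genes was not computed, so nothing is read from these counts. The C57BL6/J p65 lists were also longer, with 60505 and 60386 peaks against 56977 and 47616 in BALBc/J. Whether the larger C57BL6/J values below are particular to these genes was not tested. The strongest p65 peak had 530 and 582 tags in C57BL6/J and 284 in each BALBc/J library at Slc7a11, less than 100 bases before the start. It had 324 and 306 against 181 and 131 at Tarm1. At Alas1 it had 349 and 396 tags against 139 and 165, the last at another place than the rest, and summed H3K27Ac regions had 2012 tags in untreated C57BL6/J and 355 in untreated BALBc/J cells. At H2-M2, whose promoter held 2 matches to the NF-kB consensus, p65 had 122 and 187 tags in C57BL6/J and 133 and 164 in BALBc/J. The 2 strains' values overlapped at H2-M2 and not at the other 3 genes. At Il6 they were 137 and 118 against 115 and 84.6. Genes with the larger response in BALBc/J had stronger C57BL6/J peaks too. At Slamf1 the values were 153 and 197 in C57BL6/J against 71.0 and 81.4 in BALBc/J, and at Gbp7 333 and 381 against 240 and 210. At Cxcl11 they were 262 and 201 against 166 and 122, and at C3 459 and 546 against 361 and 358, with the strains' strongest peaks at different places in both genes. With 2 libraries per strain the smallest two-sided p an exact test allows is 0.33, so none was run.

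**Figure D5:**
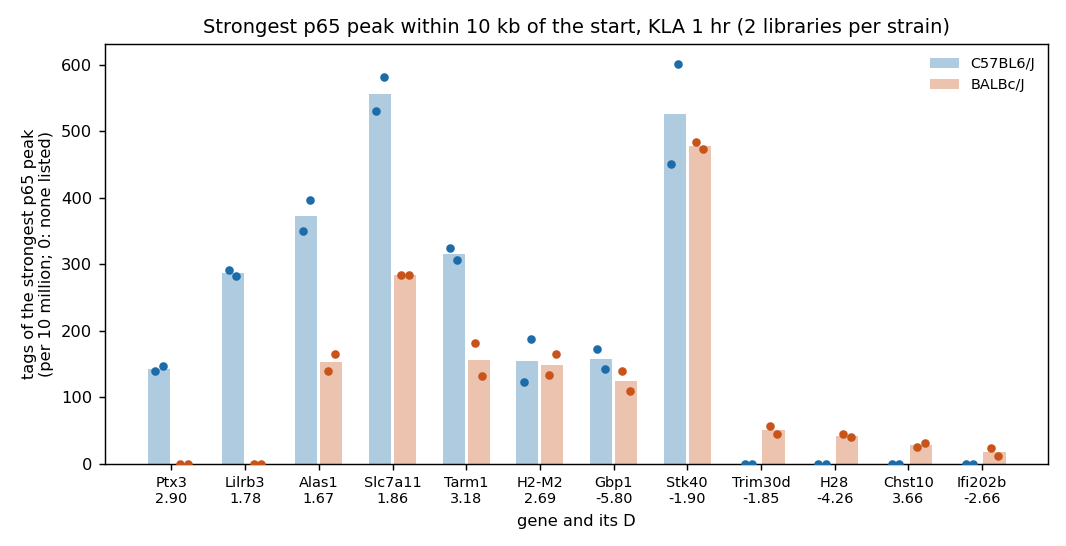
Normalised tags of the strongest p65 peak within 10 kb of the start of 12 genes after 1 hr of KLA (y axis) in C57BL6/J (blue) and BALBc/J (orange); points are the 2 libraries, bars their mean, 0 means that no peak was listed, and D stands under each gene. Ptx3 and Lilrb3 have peaks in C57BL6/J only, and Trim30d, H28, Chst10 and Ifi202b in BALBc/J only.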

How the data were processed

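Expression came from a table of 10 libraries. The deposited values are log2 of 1 plus tags normalised by the authors to 10000000 tags per library, counted on listed transcripts, per the file headers. On the linear scale they are whole reads plus a random part under 1 read, so reads were recovered by rounding down. Peak lists give the authors' normalised tag signal per peak, per the file headers. The submitters' processing notes name Bowtie 0.12.7, HOMER and the build mm9. Whether tags were counted by strand is unknown here.

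D and its 95% interval (normal approximation, counting error only) were computed with Python, numpy and pandas, and checked on simulated reads. Each symbol kept the transcript with the highest polyA mean. The members and gene lists were chosen with earlier results of these data known. Named genes are the 15 highest and 15 lowest D; the 10 highest and lowest among genes with 500 or more tags in each strain; up to 4 members per list with D of 1 or more or -1 or less; genes with opposite responses; 8 regulators; and 5 reference genes. Wdr59, Ddx60, Usp32, Cxcl9, Cxcl10, Ifi44, Irg1, Arg1, Tnf, Il1b, Nos2, Dusp7, Rhob, Snhg8, F630028O10Rik, Tnfsf15 and Inhba, and the levels of Emr1, Csf1r, Cd68, Cd3e, Lck, Hdc, S100a8, Cd22 and Dcn, were added after their values were seen. Depth was about 16980000 to 20260000 tags per polyA library. The headers of the p65 lists of both strains name tag directories numbered 1 higher than the label's replicate, and those of BALBc/J name the input of C57BL6/J as control. Some items of the lists are not reported here. Alternatives are in the closing section.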

Additional observations from a re-analysis of the deposited data

Results flagged for a closer look

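Coro2a was the 1 gene whose 4 hr responses went in opposite directions by 1 or more in the 2 strains, up in C57BL6/J and down in BALBc/J. Its D was 2.37, from 1 library per strain and treatment, so the difference was not tested. At 1 hr it had 611 and 672 tags, near the untreated 678 and 808. Its listed mRNA length of 42608 nt makes the value levelled on length unsafe, and none is given. In nascent RNA at 1 hr it went from 565 to 351 tags in C57BL6/J and from 468 to 204 in BALBc/J. These nascent responses, -0.67 and -1.16, were both below 0, so the opposite directions were not seen there. Their difference was 0.49, or 0.93 less the median over all genes.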

How the results depend on the processing

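With the pseudocount at 2, 219 genes had D of 1 or more in place of 136, and with it at 50, 60 genes; the genes with D of -1 or less went from 362 to 523 and 140. With 100 tags required in 2 polyA libraries, 77 genes were at 1 or more. Measured from the 1 hr library instead of the untreated one, 890 genes were at -1 or less, 295 of the 362 among them, and 181 were at 1 or more, 73 of the 136 among them; D of 49 of the 93 named genes moved by more than its counting interval. Levelling on transcript length, chosen after seeing the data, gave 163, of which 124 were among the 362, and 132 at 1 or more, of which 78 were among the 136. Centring each library on its median changed the split from 136 and 362 to 174 and 281. The cause of these shifts was not tested, apart from the fewer genes that the stricter filter leaves. No named gene with D of 1 or more or -1 or less changed sign under those of the 9 alternatives that gave it a value. These genes were chosen by the size of D, and a change of filter leaves a gene's D as it is. Nothing is therefore read from the absence of sign changes. Named genes with a p65 peak in C57BL6/J only were 5 within 10 kb, 1 within 50000 bp, and 9 when both libraries had to hold a peak for a strain to count; in BALBc/J only they were 6, 4 and 4. No replicate could be left out, since there is 1 library per strain and treatment, and no paired analysis was possible because no test was run.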
